A study of Mus musculus with 6 samples.

Results

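The 10 genes described here encode the receptors through which macrophages sense colony-stimulating factors and interleukins, and they were taken by symbol from the mRNA table: Csf1r, Csf2ra, Csf2rb, Csf3r, Il4ra, Il6ra, Il10ra, Il13ra1, Il7r and Il2rg. All 10 were found among 21912 gene symbols, and the transcripts of a symbol were summed. The study sequenced macrophage RNA from mouse in 6 libraries: control 1 to 3 carry the label control, and M 1 to 3 the letter M. Its subject is ox-LDL, oxidised low-density lipoprotein, which macrophages take up until they become lipid-laden foam cells. The labels do not spell out M, and the extraction text calls the cells of all 6 libraries ox-LDL induced, so M was taken as the exposed group only because the other group is named control. The sources used here give no strain, genotype, age, cell source, dose or time. They also do not say that replicates were separate cultures, and the spread that the p-values rest on may therefore be technical.

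As background, most of these receptors have no enzyme of their own. Binding of the cytokine joins a private chain, which recognises the ligand, to a shared chain, and the JAK kinases bound to their tails then phosphorylate STAT transcription factors. CSF1R differs in being a tyrosine kinase itself, and macrophages depend on it for survival. IL-10 and its receptor restrain macrophage activation, while IL-4 and IL-13 drive the alternative activation programme.

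Values are FPKM, fragments scaled to transcript length and to library size, so levels of different genes can be compared per length. Read counts cannot be had from them, which leaves sequencing depth unknown and allows no counting interval. Summed mRNA values were 375467 to 390581 FPKM per library. Pearson's r over the tested genes was 0.990 to 0.993 within a group and 0.961 to 0.968 across groups. The macrophage label was checked against 16 markers, of which 12 averaged at least 1 FPKM, among them Lyz2 (lysozyme) at 4610 ± 200 FPKM in control and 6069 ± 173 in M (SD, n = 3) and Cd14, a receptor for bacterial lipopolysaccharide, at 386 ± 21.9 and 497 ± 15.1. Of the 12 markers, 6 were called higher and 3 lower in M by the fit described below (21.2% and 21.9% over all tested genes). The lower ones were the chemokine receptors Cx3cr1 (144 ± 5.70 to 67.2 ± 3.21 FPKM; log2 fold change -1.08 ± 0.0486, adjusted p = 4.07e-06) and Ccr2 (3.24 ± 0.826 to 1.62 ± 0.235 FPKM) and the pore-forming protein gene Mpeg1 (350.1 ± 1.78 to 313 ± 8.11 FPKM). The markers Marco, Ly6c1 and Ly6c2 were listed at 0 in every library. Mertk was below 1 FPKM in every library (0.128 ± 0.0604 in control and 0.127 ± 0.0526 in M). Mrc1 was only just above 1 FPKM on average (1.02 ± 0.125 in control and 1.18 ± 0.189 in M). Of 11 dendritic cell markers 8 were below 1 FPKM in every library, as were all 10 of mast cells, basophils and eosinophils and 11 of 12 stromal and epithelial ones. The dendritic sum was 89.6 to 109 FPKM in control and 53.4 to 61.8 in M, mostly Bst2, an interferon-induced gene. Their part in the receptor values was not tested, and in bulk RNA fewer cells of a type and less RNA per cell cannot be told apart.

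Differences between groups are log2 fold changes, M minus control, on the log2(FPKM + 1) scale, where the change of a low gene comes out too small. They come from limma over all 10390 genes averaging at least 1 FPKM, with Benjamini-Hochberg adjustment over those genes, and the threshold for a call was an adjusted p of 0.05. All 10 receptor genes passed that floor. Among them 5 were higher in M (Csf2ra, Csf2rb, Il4ra, Il7r and Il2rg) and 3 were lower (Il6ra, Il10ra and Il13ra1). Over all tested genes 21.2% were called higher and 21.9% lower, 43.1% in all. Without M 3, 3 of the receptor genes were called higher. None of the 10 changed 2-fold, and their median log2 fold change was 0.19, against -0.0057 over all tested genes. The median absolute log2 fold change was 0.32 for the receptors and 0.16 over all tested genes. The control and M libraries did not overlap in 9 of the 10, with M above control in 6 and below it in 3. Over all tested genes this held for 55.7%, with M above in 27.6% and below in 28.1%.

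**Figure D1:**
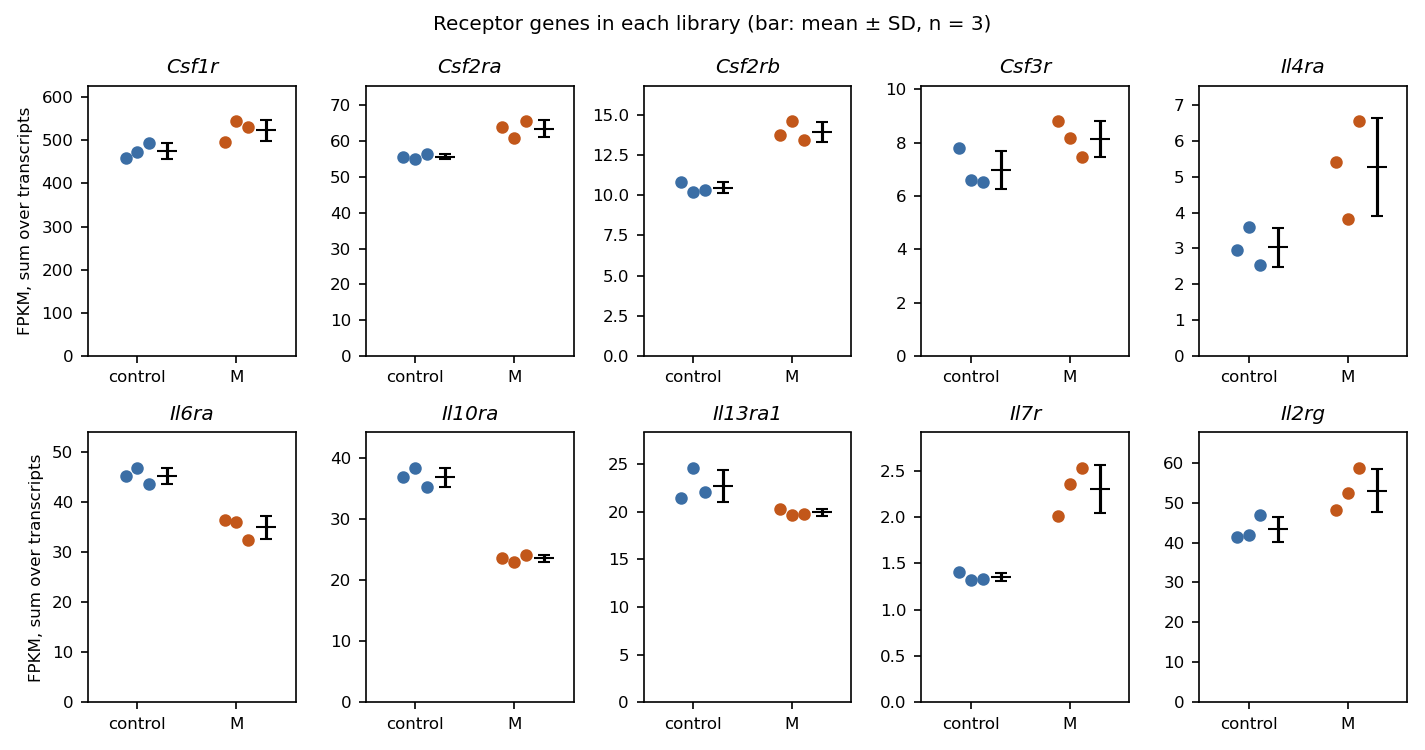
FPKM of the 10 receptor genes (y axis, sum over transcripts, each panel from 0) in the 3 control and 3 M libraries. Points are libraries, and the bar beside them is the mean with its SD; Il10ra lies between 35.4 and 38.5 in control and between 23.0 and 24.2 in M, while the groups overlap in Csf3r.

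The levels spanned a wide range. In control, Csf1r was the most abundant at 475 ± 17.8 FPKM, above 99.0% of the tested genes by its mean over all libraries. Csf2ra (55.7 ± 0.715), Il6ra (45.3 ± 1.61), Il2rg (43.3 ± 3.09), Il10ra (36.9 ± 1.55), Il13ra1 (22.7 ± 1.68), Csf2rb (10.5 ± 0.342), Csf3r (6.99 ± 0.716), Il4ra (3.03 ± 0.543) and Il7r (1.35 ± 0.0443) followed. Il6ra and Il2rg were the only neighbours in that order whose control libraries overlapped. In M the same order held except that Il2rg (53.0 ± 5.39) stood above Il6ra (34.9 ± 2.25), and no neighbours overlapped. The private chain of the IL-4 receptor was thus among the scarcest of the 10, while the 2 chains it can pair with, Il2rg and Il13ra1, were present at several times its level.

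Among the colony-stimulating factor receptors, both chains of the GM-CSF receptor rose. Csf2ra (ENSMUSG00000059326), the private chain that binds GM-CSF, was at 55.7, 55.0 and 56.4 FPKM in control 1 to 3 and at 63.9, 60.9 and 65.6 in M 1 to 3. Every M library stood above every control library, and the log2 fold change was 0.18 ± 0.0393 (SE; limma adjusted p = 0.00696). Csf2rb (ENSMUSG00000071713), the beta chain shared by the receptors for GM-CSF, IL-3 and IL-5, was at 10.9, 10.2 and 10.3 FPKM in control and at 13.7, 14.6 and 13.4 in M. Its groups did not overlap either, and its log2 fold change of 0.38 ± 0.0512 (adjusted p = 7.21e-04) exceeded in size that of 80.8% of tested genes.

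The mouse has a second beta chain gene, Csf2rb2, whose product serves the IL-3 receptor alone. It is a near copy of Csf2rb, and how reads were split between the copies is not stated, so both values are uncertain. Csf2rb2 went from 3.32 ± 0.117 to 4.75 ± 0.294 FPKM (log2 fold change 0.41 ± 0.0670, adjusted p = 0.00188). The sum of both genes, computed after their values were seen, went from 13.8 ± 0.233 to 18.7 ± 0.794 FPKM, a log2 difference of 0.41. The private chains of the IL-3 and IL-5 receptors were at or near the bottom of the table: Il3ra was listed at 0 in every library and Il5ra below 1 FPKM in all.

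Csf1r (ENSMUSG00000024621), the receptor for CSF1 and IL-34, was not called. It was at 458, 473 and 493 FPKM in control and at 497, 544 and 529.6 in M. The lowest M library stood just above the highest control library. The log2 fold change was 0.14 ± 0.0523, with a 95% interval of 0.02 to 0.26 (adjusted p = 0.0635). It was called without M 1 (0.18, adjusted p = 0.0385) and with quantile normalization (0.32, adjusted p = 0.00398). Csf3r (ENSMUSG00000028859), the receptor for the granulocyte factor G-CSF, was at 7.81, 6.61 and 6.53 FPKM in control and at 8.81, 8.17 and 7.46 in M. Control 1 exceeded M 3, and the log2 fold change of 0.20 ± 0.0838 missed the threshold (adjusted p = 0.0944). It was called without control 1 (0.27, adjusted p = 0.0369) and with the replicate number as a block (0.20, adjusted p = 0.0426). All 15 markers of neutrophils and their precursors were below 1 FPKM in every library, with Ly6g, Mpo and S100a9 listed at 0. Their sum was 0.195 to 0.335 FPKM in control and 1.09 to 1.35 in M, and its part in the Csf3r values was not tested.

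**Figure D2:**
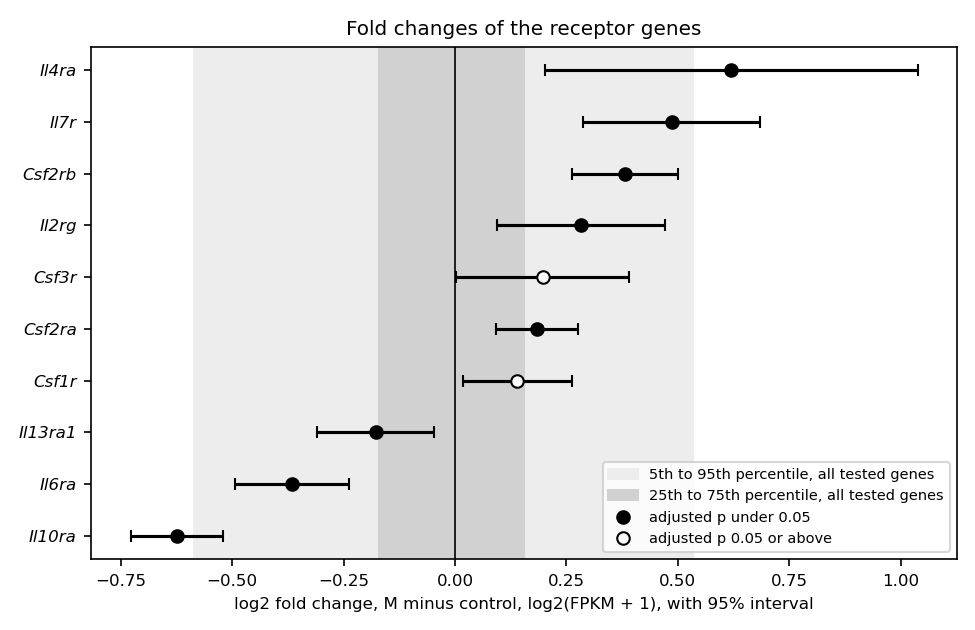
Log2 fold change, M minus control, of each receptor gene (x axis) with its 95% interval from limma; filled points have an adjusted p under 0.05. The bands show the 25th to 75th and the 5th to 95th percentile of all 10390 tested genes: Il10ra lies below and Il4ra above the outer band.

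Among the interleukin receptors, Il10ra and Il6ra fell. Il10ra (ENSMUSG00000032089), the chain that binds IL-10, was at 36.9, 38.5 and 35.4 FPKM in control and at 23.7, 23.0 and 24.2 in M. The groups were far apart compared with the spread inside either, and the M mean was 0.639 of the control mean. Its log2 fold change of -0.62 ± 0.0447 (adjusted p = 3.17e-05) was larger in size than that of 91.6% of tested genes and had the smallest adjusted p of the 10. Il6ra (ENSMUSG00000027947), the chain that binds IL-6 and also circulates in a soluble form, was at 45.3, 46.9 and 43.7 FPKM in control and at 36.5, 36.0 and 32.4 in M. All M libraries were below all control libraries (-0.37 ± 0.0547, adjusted p = 0.00124).

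The shared partners of these private chains gave other results. Il10rb, the chain that IL-10 receptors share with those for IL-22 and interferon lambda, rose from 39.8 ± 0.459 to 48.0 ± 0.857 FPKM (log2 fold change 0.26 ± 0.0347, adjusted p = 6.46e-04). Il6st, which encodes gp130, the signalling chain of the IL-6 family, was at 35.3 ± 1.31 FPKM in control and 33.1 ± 1.12 in M and was not called (-0.088 ± 0.0447, adjusted p = 0.148).

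The 3 receptor genes of IL-4 and IL-13 gave different results. Il13ra1 (ENSMUSG00000017057), which binds IL-13 and pairs with the IL-4 chain, was at 21.4, 24.6 and 22.1 FPKM in control and at 20.3, 19.7 and 19.8 in M. The M libraries were close together and just below the lowest control library. The fall of 0.18 on the log2 scale (SE 0.0564, adjusted p = 0.0357) was lost without control 2 (-0.12, adjusted p = 0.0771), control 3 (adjusted p = 0.0549) or any 1 M library (adjusted p = 0.0569 to 0.0983), with no filter (0.0579) and with the replicate number as a block (0.0579). Il4ra (ENSMUSG00000030748), which binds IL-4 in both forms of its receptor, was at 2.96, 3.61 and 2.53 FPKM in control and at 5.42, 3.83 and 6.55 in M. M 2 stood close to control 2, well under the other M libraries. The log2 fold change of 0.62 ± 0.176 (adjusted p = 0.0269) had the widest 95% interval of the 10, 0.20 to 1.04. Its call was lost without control 1, control 3, M 1 or M 3 (adjusted p = 0.0632 to 0.0834) and with the replicate number as a block (0.0844). The decoy receptor Il13ra2 was below 1 FPKM in every library.

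Il2rg and Il7r, best known from lymphocytes, were both higher in M. Il2rg (ENSMUSG00000031304), the common gamma chain used by IL-2, IL-4, IL-7, IL-9, IL-15 and IL-21, was at 41.3, 41.8 and 46.9 FPKM in control and at 48.0, 52.3 and 58.7 in M. Control 3 and M 1 lay close to each other (log2 fold change 0.28 ± 0.0805, adjusted p = 0.0251). Its call was lost without control 1, control 2, M 2 or M 3 (adjusted p = 0.0569 to 0.0821). Il7r (ENSMUSG00000003882), the chain that binds IL-7 and, with Crlf2, the cytokine TSLP, was at 1.40, 1.32 and 1.33 FPKM in control and at 2.01, 2.36 and 2.53 in M. It was the lowest of the 10 genes, yet its groups were well separated (0.49 ± 0.0854, adjusted p = 0.00277). The M mean was 1.70 times the control mean, and its log2 fold change, called either way, was 0.20 when 5 FPKM were added before the log and 0.72 when 0.1 were.

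Lymphocyte markers were given beside these 2 genes because lymphocytes carry both. Of 22 such markers, 20 were below 1 FPKM in every library and 11 were listed at 0 in all, among them the T cell receptor subunits Cd3d, Cd3e and Cd3g, the B cell marker Ms4a1 and the natural killer cell receptor Ncr1. Their sum was 3.21 to 3.79 FPKM in control and 5.61 to 6.03 in M. Most of it came from Lck, a SRC family kinase (2.44 ± 0.260 to 3.72 ± 0.0935 FPKM), and the transcription factor Gata3 (0.631 ± 0.133 to 1.56 ± 0.130). Their part in the Il7r and Il2rg values was not tested. The other chains of the common gamma family were Il2ra, Il2rb and Il9r, the private chain for IL-9, all listed at 0 or near it, Il15ra, which was not called (5.10 ± 0.900 and 4.55 ± 0.966 FPKM), and Il21r, which fell from 3.32 ± 0.319 to 1.91 ± 0.312 FPKM (log2 fold change -0.57 ± 0.102, adjusted p = 0.00291). Crlf2 was at 10.2 ± 0.382 FPKM in control and 12.8 ± 2.92 in M, and was not called (0.29 ± 0.144, adjusted p = 0.149).

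RefSeq promoter windows of build GRCm38.p6 were used, each 300 bases from 250 before a gene's start to 50 after it. They covered 7 of the 10 genes: Csf2ra, Csf3r, Il13ra1, Il2rg, Il4ra, Il6ra and Il7r. For the receptor genes 1 chromosome was left out of the search, while the count over all windows had no such limit. The submitters' notes give mm9 as the build of the deposited values, and only the letters of the windows were used. The letters AGGAAG, a core bound by ETS factors such as the macrophage factor PU.1, were searched on both strands and occurred in 6 of the 7, Il13ra1 being without them, and in 35.4% of all 32851 windows in the table. The motif was chosen after the windows had been read. Csf3r held 4 matches and Csf2ra 2. The motif TTCNNNGAA, the form bound by most STAT dimers, also searched on both strands, occurred in 1 of the 7, that of Il7r, and in 8.30% of all windows. The windows below belong to a pair of genes that rose and 1 that fell, with AGGAAG or its reverse complement in capitals and each read 5′ to 3′ on the gene's own strand. They lie at chr19:61228369-61228668 (minus strand) for Csf2ra, chr15:9529827-9530126 (minus strand) for Il7r and chr3:89913147-89913446 (minus strand) for Il6ra.
Csf2ra: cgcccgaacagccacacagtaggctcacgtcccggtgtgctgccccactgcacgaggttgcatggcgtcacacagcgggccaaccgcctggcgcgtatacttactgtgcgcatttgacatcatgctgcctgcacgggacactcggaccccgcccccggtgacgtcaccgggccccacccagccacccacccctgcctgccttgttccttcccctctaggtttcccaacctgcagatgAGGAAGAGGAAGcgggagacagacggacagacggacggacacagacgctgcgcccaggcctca
Il7r: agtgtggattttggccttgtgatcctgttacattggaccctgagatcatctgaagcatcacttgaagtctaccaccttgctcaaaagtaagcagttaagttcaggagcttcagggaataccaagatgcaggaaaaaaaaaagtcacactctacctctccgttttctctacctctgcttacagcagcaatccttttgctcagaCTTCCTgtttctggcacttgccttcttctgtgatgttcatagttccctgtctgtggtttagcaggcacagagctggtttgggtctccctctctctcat
Il6ra: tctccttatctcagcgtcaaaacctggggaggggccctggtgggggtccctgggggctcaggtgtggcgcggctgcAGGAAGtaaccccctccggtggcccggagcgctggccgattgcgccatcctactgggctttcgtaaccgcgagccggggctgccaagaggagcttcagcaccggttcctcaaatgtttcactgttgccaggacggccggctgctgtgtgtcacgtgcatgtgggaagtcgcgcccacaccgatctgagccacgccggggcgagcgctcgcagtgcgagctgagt
In Csf2ra the 2 matches stand side by side near the start of the gene, in Il7r the single match is on the opposite strand, and in Il6ra the single match lies far upstream of the start. The matches to both motifs in Il7r share no base. A match describes these letters only and says nothing of binding.

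Balance between chains was then compared within each library, as the ratio of the FPKM of 2 chains, in 6 ratios. With 3 libraries a group the smallest p of an exact two-sided permutation test is 0.1. Each of the 6 ratios gave it (0.1 also after adjustment over the 6). That value is above the threshold for a call, so the test could call no ratio. It says only that the groups did not overlap, which held for 55.7% of single tested genes. How often ratios of other gene pairs separate the groups was not tested, so all 6 ratios are given as descriptions. In Il10ra to Il10rb, Il4ra to Il13ra1 and Il13ra1 to Il2rg the chains separated the groups in opposite directions. For these 3 the lack of overlap follows from the gene values above and adds no evidence. Il10ra to Il10rb was 0.923, 0.959 and 0.901 in control and 0.502, 0.470 and 0.504 in M, so the chains were near parity in control and the private chain was well below its partner in M. Il6ra to Il6st went from 1.28 ± 0.0236 to 1.06 ± 0.102, passing below 1 in M 3 (0.941).

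For the IL-4 receptor, Il4ra to Il13ra1 was 0.138, 0.147 and 0.115 in control and 0.267, 0.195 and 0.331 in M, with M 2 again nearest to control. Il13ra1 to Il2rg, the chains that compete for IL4RA, went from 0.526 ± 0.0594 to 0.379 ± 0.0432. Il7r to Il2rg went from 0.0313 ± 0.00278 to 0.0434 ± 0.00157, and Csf2ra to Csf2rb from 5.33 ± 0.171 to 4.56 ± 0.365. These ratios describe RNA and not the chains on the cell surface.

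**Figure D3:**
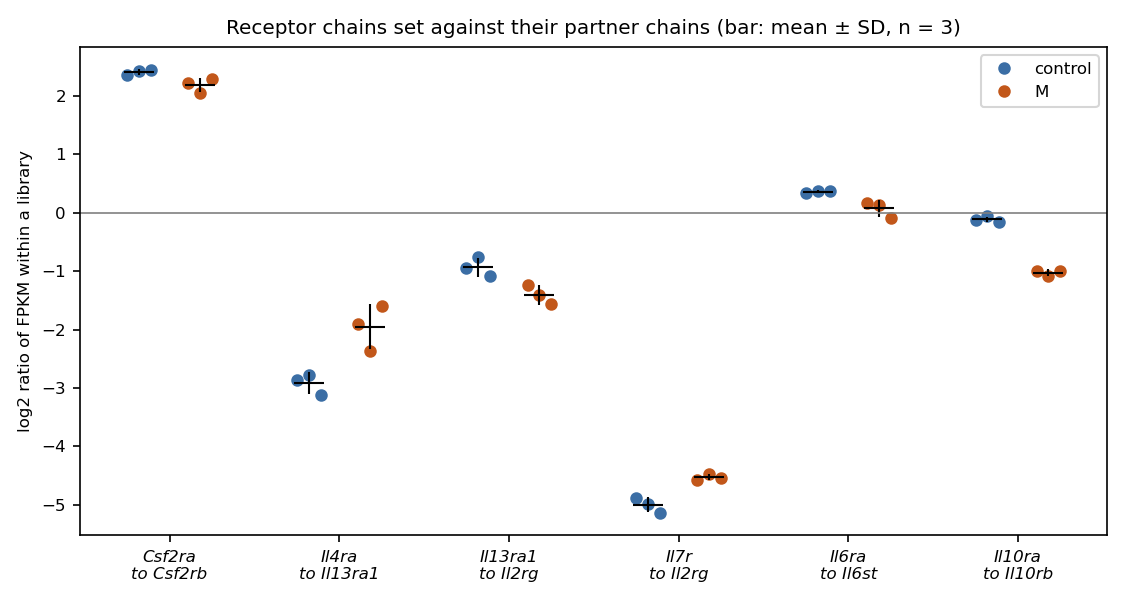
Log2 ratio of the FPKM of 2 receptor chains within a library (y axis) for 6 pairs (x axis); points are libraries, and bars are the mean with its SD. Il10ra to Il10rb lies near 0 in control (mean -0.11) and near -1.02 in M.

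The summed values hide how the fragments were assigned to transcripts. The 10 genes had 17 transcripts in the table: 4 genes (Csf2ra, Csf2rb, Il13ra1 and Il7r) had 1, 5 had 2 and Il4ra had 3. With every transcript averaging at least 1 FPKM tested on its own (16851 in all, of which 18.7% were called), 15 transcripts of the receptor genes were tested, with 3 higher and 3 lower (9.18% and 9.56% over all tested transcripts). The groups did not overlap in 10 of the 15, with M above in 6 and below in 4, against 39.0%, 19.0% and 20.0% over all tested transcripts. Among the 10 are the transcripts of the 4 genes with 1 transcript, which repeat the gene values. Among the 6 is ENSMUST00000206217 of Il4ra, which reached the floor for testing only through the M libraries. The count of 10 is therefore not read as support. The 3 transcripts called higher belonged to Csf2ra, Csf2rb and Il7r. Each is the only transcript of its gene, so its values and fold change repeat those of the gene and add no evidence. Only the fit and the adjustment, made over transcripts in place of genes, differ. Of the receptor transcripts, 1 was called higher without control 1, control 2, control 3 or M 3. The call of the Il7r transcript was lost without any 1 library (adjusted p = 0.0542 to 0.123), with no filter (0.0538) and with the replicate number as a block (0.136). That of Csf2ra was lost without control 1, control 2, control 3, M 1 or M 3 (0.0576 to 0.0722), with quantile normalization (0.0824) and with the block (0.0571). Both transcripts of Il6ra were called lower, ENSMUST00000029559 by -0.35 ± 0.0769 (adjusted p = 0.0322) and ENSMUST00000197679 by -0.37 ± 0.0491 (adjusted p = 0.00632), so both were lower in M as the sum was. The call of ENSMUST00000029559 was lost without control 1, control 2, control 3, M 1 or M 2 (adjusted p = 0.0514 to 0.0993) and with no filter (0.0599), and that of ENSMUST00000197679 with the replicate number as a block (0.0508). The main transcript of Il10ra, ENSMUST00000034594, fell as well (log2 fold change -0.65 ± 0.0719, adjusted p = 0.00353). The other one, ENSMUST00000176222, was given in control 3 (1.87 FPKM) and M 1 (2.56) and listed at 0 in the other libraries.

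Il4ra differed from these. Its transcript ENSMUST00000033004 was at 2.95, 3.30 and 2.29 FPKM in control and at 2.53, 3.10 and 2.67 in M, with a log2 fold change of -0.025 ± 0.142 (95% interval -0.38 to 0.33, adjusted p = 0.929). ENSMUST00000206217 was at 0.0105, 0.306 and 0.243 FPKM in control and at 2.90, 0.731 and 3.78 in M. The difference of the summed gene thus lay in this second transcript, which took 53.4% of Il4ra in M 1, 19.1% in M 2 and 57.7% in M 3, and at most 9.60% in a control library. On its own it was not called (log2 fold change 1.43 ± 0.417, adjusted p = 0.0742), and without M 2 it was (1.87, adjusted p = 0.0139). It reached the floor for testing only through the M libraries, so that call is not read as support.

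Csf1r showed a split that did not follow the groups. ENSMUST00000025523 was at 2.67, 2.96 and 158 FPKM in control 1 to 3 and at 2.44, 193 and 188 in M 1 to 3. The libraries thus fell into 3 with under 1% of Csf1r in this transcript (control 1, control 2 and M 1) and 3 with 31.9% to 35.6% of it. No cause of this split was tested. ENSMUST00000115268 took the rest, at 455, 470.2 and 336 FPKM in control and 494, 351 and 341 in M. Neither transcript was called (adjusted p = 0.624 and 0.796), and the sum of both varied far less than either.

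**Figure D4:**
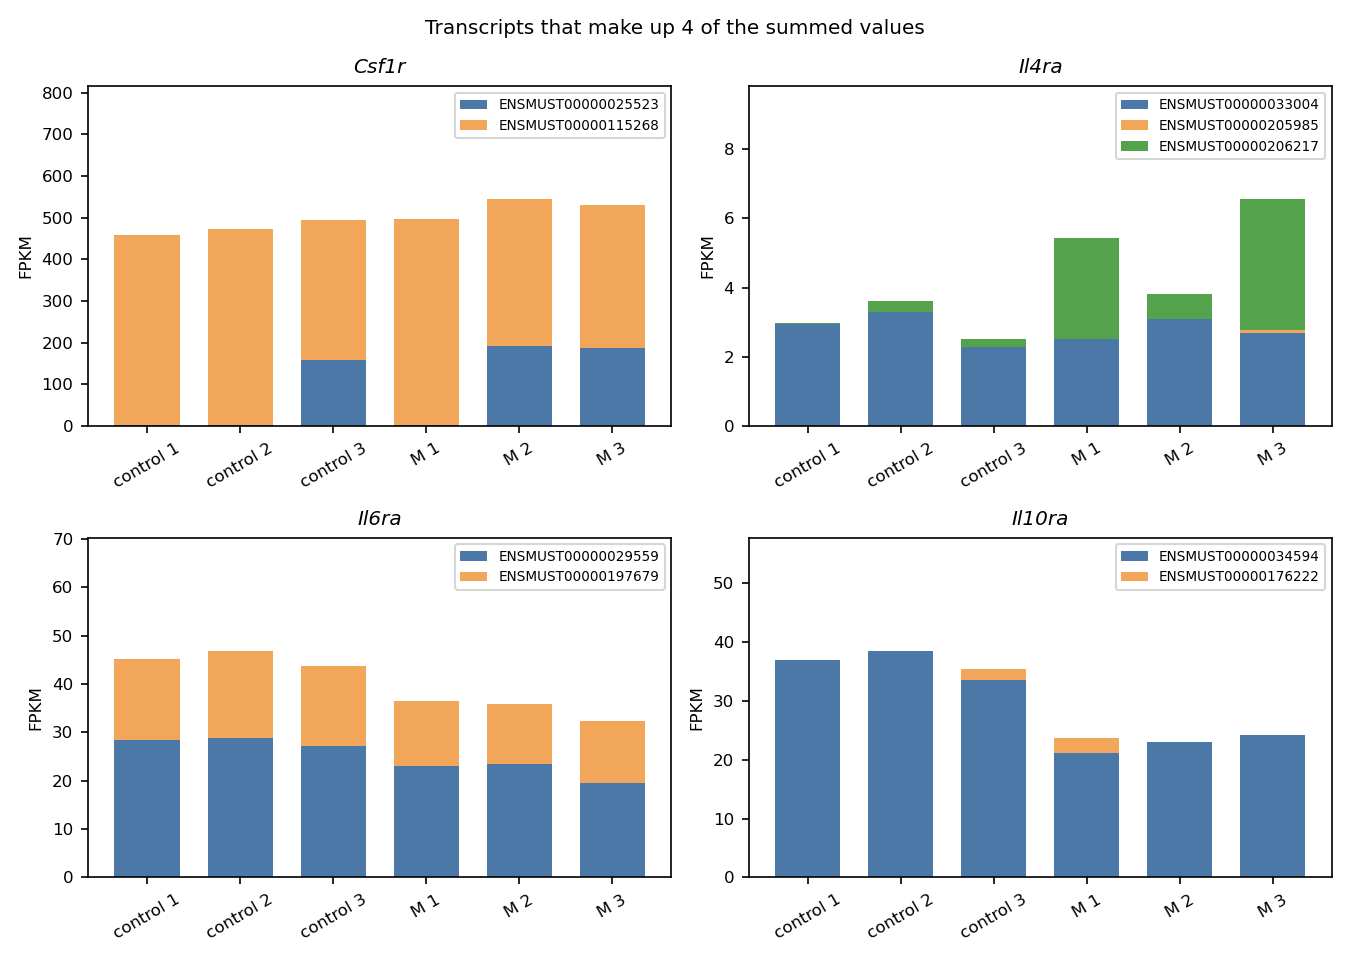
FPKM of each transcript (stacked bars, y axis from 0) of Csf1r, Il4ra, Il6ra and Il10ra in the 6 libraries. Csf1r transcript ENSMUST00000025523 is large in control 3, M 2 and M 3 and small in the other libraries. Il4ra transcript ENSMUST00000206217 appears mainly in M 1 and M 3, and both Il6ra transcripts are lower in all M libraries.

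The ligands of these receptors were scarce in the same RNA. Of 16 ligand genes, 15 were below 1 FPKM in every library, and 7 of them, among them Csf2, Il4, Il13 and Il2, were listed at 0 throughout. Csf1 was at 0.723 ± 0.202 FPKM in control and 0.707 ± 0.166 in M, below the floor for testing. Il15, which signals through the common gamma chain, was the only one tested and fell from 4.15 ± 0.0423 to 3.30 ± 0.217 FPKM (log2 fold change -0.26 ± 0.0660, adjusted p = 0.0143).

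Downstream, of 22 tested JAK, STAT and feedback genes 4 were higher and 6 lower in M (21.2% and 21.9% over all tested genes). Their median log2 fold change was -0.046. Jak1 (0.12) and Jak2 (0.18), kinases bound to many of these chains, Stat3 (0.16), the main STAT of IL-6 and IL-10, and Stat6 were the higher ones. Stat6, the STAT of IL-4 and IL-13, went from 46.6 ± 0.0306 to 56.5 ± 0.627 FPKM (0.27 ± 0.0325, adjusted p = 4.00e-04). Jak3, the kinase of the common gamma chain, was not called (6.46 ± 0.373 and 5.75 ± 0.197 FPKM, adjusted p = 0.0967). The lower ones included Stat2 (13.4 ± 0.803 to 7.71 ± 0.121 FPKM) and Socs3, an inhibitor of gp130 signalling (6.10 ± 0.467 to 3.79 ± 0.426). Ptpn6, the phosphatase SHP-1, which restrains CSF1R and JAK signalling, fell from 142 ± 8.44 to 93.0 ± 3.63 FPKM (-0.60 ± 0.0535, adjusted p = 8.57e-05). The count of higher genes was 1 without control 1, control 3 or M 2, and 2 without M 1.

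Of 23 tested genes for CSF1R adaptors, turnover and shedding, 10 were higher and 3 lower (21.2% and 21.9% over all tested genes). Their median log2 fold change was 0.12. Src, a kinase recruited to the activated receptor, had the highest fold change of these genes, from 0.834 ± 0.0654 to 3.19 ± 0.346 FPKM (1.19 ± 0.0885, adjusted p = 3.73e-05). It was below 1 FPKM in every control library and reached the floor for testing only through M. Neither its p-value nor its place among the 10 higher genes is therefore read as support. Its relative Lyn rose from 58.8 ± 1.08 to 76.3 ± 1.22 FPKM. Adam17, the protease that sheds CSF1R and the IL-6 receptor from the cell surface, rose from 80.8 ± 2.07 to 113 ± 4.91 FPKM (0.48 ± 0.0437, adjusted p = 1.00e-04). Pik3r1, a regulatory subunit of phosphoinositide 3-kinase, fell from 14.6 ± 0.0106 to 10.9 ± 0.200 FPKM. Tyrobp, the adaptor DAP12 and the most abundant of the list, was not called (636 ± 39.7 and 601 ± 20.1 FPKM, adjusted p = 0.287), and its direction turned to 0.17 with quantile normalization.

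By the distance between their log2 values over the 6 libraries, each centred on its own mean, the genes averaging at least 5 FPKM that lay nearest to Il10ra included Bcl7a (10.7 ± 0.284 to 6.51 ± 0.191 FPKM) and Neurl1b (21.9 ± 1.37 to 13.7 ± 0.347). Nearest to Il4ra were Arsg (5.23 ± 0.460 to 7.14 ± 1.34), Nbeal2 (6.22 ± 0.597 to 8.59 ± 0.967) and Metrnl (37.7 ± 4.09 to 55.1 ± 11.2). In each of these 3 M 2 was the lowest M library, as in Il4ra. These genes were chosen for their likeness, so it is a description over 6 libraries.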

How the data were processed

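Total RNA of 3 control and 3 M libraries was prepared with Trizol and a TruSeq RNA kit, per the labels' protocols. The authors deposited FPKM per transcript, on build mm9 per the submitters' processing notes. Aligner, quantifier, annotation, strand setting and filters: not given in the sources used here. FPKM hold no counts, so the number of libraries limits the precision. The deposited lncRNA table was not used.

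Transcripts of a symbol were summed; genes averaging at least 1 FPKM over the 6 libraries were fitted as log2(FPKM + 1) with limma 3.58.1 in R 4.3.3 (eBayes, robust, with a mean-variance trend; group was the single term; two-sided p-values were adjusted by Benjamini-Hochberg across the genes tested). Transcripts were fitted likewise. The fit was tested on simulated data. Chain ratios were tested with an exact permutation test (scipy 1.17.1). Gene IDs of all 10 receptors matched the same symbols in the reference names. The members and gene lists were chosen with earlier results of these data known. Named genes were all 10 receptors, their ligands and partner chains and, from each other list, up to 4 called genes with the smallest adjusted p and the 2 most abundant; further ones were chosen after their values were seen. Alternatives changed the pseudocount, filter, scaling, replicate block, transcript summing, threshold or 1 library at a time. A few genes that this rule names are not reported here.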

Additional observations from a re-analysis of the deposited data

How the results depend on the processing

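Of the 10 receptor genes, Csf2ra, Csf2rb, Il6ra, Il10ra and Il7r kept direction and call in all 13 alternatives of the fit over genes. With only the most abundant transcript of each gene, the log2 fold change was -0.093 for Csf1r and -0.025 for Il4ra, both opposite to the sum, because the other transcript is then left out, and -0.18 (uncalled) for Il13ra1. Il13ra1 was also uncalled with no filter (-0.18), and Csf1r was called with quantile normalization (0.32). With 1 library left out, values ranged from 0.11 to 0.18 for Csf1r, 0.14 to 0.27 for Csf3r, 0.47 to 0.80 for Il4ra, -0.22 to -0.12 for Il13ra1 and 0.21 to 0.35 for Il2rg. The receptors called numbered 3 to 5 higher and 2 to 3 lower, and their transcripts 1 to 3 higher and 2 to 3 lower. At an adjusted p under 0.01, 3 receptors were higher, as were 1433 genes of the table, and 1474 genes were lower. The cause of these changes was not tested.

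The log2 fold changes of uncalled transcripts changed sign in places: ENSMUST00000030673 of Csf3r ranged from -0.018 to 0.39, ENSMUST00000033004 of Il4ra from -0.13 to 0.060 and ENSMUST00000115268 of Csf1r from -0.26 to 0.0022 with 1 library left out, and the last was 0.045 with quantile normalization. Tyrobp was at 0.17 with quantile normalization.

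Whether replicate numbers pair the libraries is not stated in the sources used here. Deviations of same-numbered libraries correlated at 0.0664, 0.0052 and -0.0347, and those of other-numbered ones at -0.0704 to 0.0657. With 3 libraries a group these values cannot exclude a pairing. With the replicate number as a block, 2104 genes were higher and 2196 lower (2206 and 2274 without), Csf3r was called (0.20), and Il4ra (0.62) and Il13ra1 (-0.18) were not. Depth in reads is unknown, so values near 0 were read only as listed.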

Other observations

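Other cytokine receptors in the table moved both ways. Of 15 tested, 4 were higher and 4 lower in M (21.2% and 21.9% over all tested genes), with a median log2 fold change of 0.08. Lifr, the receptor for leukaemia inhibitory factor and a partner of gp130, was at 1.83, 1.90 and 1.96 FPKM in control and at 0.447, 0.391 and 0.319 in M (log2 fold change -1.06 ± 0.0834, limma adjusted p = 4.84e-05). It reached the floor for testing only through the control libraries. Neither its p-value nor its place among the 4 lower genes is therefore read as support. Il18rap, the accessory chain of the IL-18 receptor, rose from 4.63 ± 0.152 to 8.25 ± 0.908 FPKM (0.71 ± 0.0786, adjusted p = 2.65e-04), while its binding chain Il18r1 was below 1 FPKM in every library. Tgfbr2, the type II receptor for TGF-beta, fell from 74.3 ± 1.45 to 58.4 ± 3.99 FPKM (-0.34 ± 0.0523, adjusted p = 0.00135). Ifnar1, a chain of the type I interferon receptor, rose from 28.8 ± 1.02 to 34.2 ± 0.418 FPKM (adjusted p = 0.00220), and its partner Ifnar2 was not called (adjusted p = 0.234).

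Of 12 tested transcription factors known to act on myeloid receptor genes, 4 were higher and 3 lower (21.2% and 21.9% over all tested genes). Their median log2 fold change was -0.011. Spi1, which encodes PU.1, was at 104 ± 2.13 FPKM in control and 103 ± 1.62 in M and was not called (log2 fold change -0.018 ± 0.0352, adjusted p = 0.708). Runx1, a factor of the Csf1r enhancer, fell from 60.7 ± 3.78 to 42.2 ± 2.15 FPKM (-0.51 ± 0.0576, adjusted p = 2.87e-04). Ets2 rose from 19.7 ± 1.41 to 76.9 ± 8.11 FPKM (1.91 ± 0.0843, adjusted p = 5.53e-06) and Tfec, of the MITF family, from 3.16 ± 0.364 to 10.3 ± 0.407 (1.45 ± 0.0768, adjusted p = 8.25e-06). Cebpb rose from 104 ± 10.6 to 167 ± 6.85 FPKM (adjusted p = 2.42e-04).

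Cbl, the ubiquitin ligase that sends CSF1R for degradation, also varied between libraries across the groups. It was at 48.7, 46.6 and 20.4 FPKM in control and at 20.7, 51.9 and 51.2 in M. Its low libraries, control 3 and M 1, were not the set that stood apart in the Csf1r transcripts (control 1, control 2 and M 1). Grb2, an adaptor of the receptor, was at 64.5, 65.1 and 35.0 FPKM in control and at 62.9, 60.5 and 58.1 in M. Both were chosen after their values were seen, and neither was called (adjusted p = 0.918 and 0.597).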
